A study of Rattus norvegicus with 6 samples.

Results

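Interferon-stimulated genes were examined in the lungs of rats with bleomycin-induced pulmonary fibrosis and in control lungs. The group held 9 genes, Irf1, Irf7, Isg15, Mx1, Mx2, Ifit2, Ifit3, Oas1a and Rsad2. They were taken by name and not by a threshold on their values, though earlier results of these data were known. All 9 names were found among 21210 gene names that carry at least 1 annotated transcript, and they comprised 22 of the 70376 transcripts listed. A gene's level was the sum over its transcripts of the deposited FPKM (sequenced fragments per kilobase of transcript, scaled to the mapped fragments of the library), a unit that already corrects for transcript length.

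The RNA came from whole lungs of specific pathogen-free Sprague–Dawley rats, an outbred strain, and no genetic change is named for either group. Of 20 rats aged 7 weeks, the model rats received 1 intratracheal dose of bleomycin at 7 mg/kg, an antitumor antibiotic that injures the lung epithelium, and the control rats received saline by the same route. The lungs were taken 4 weeks later, and 3 control libraries (Control_1 to Control_3) and 3 model libraries (Model_1 to Model_3) of RNA depleted of ribosomal RNA were sequenced. The methods describe the libraries as those of 3 model and 3 control rats, and the p-values measure only the spread between these libraries. In whole tissue, fewer cells of a type and less RNA per cell cannot be told apart.

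Interferons are secreted by cells that sense foreign or misplaced nucleic acids. Type I interferons bind the receptor formed by Ifnar1 and Ifnar2, and Janus kinases then activate a complex that holds Stat2 and Irf9 and binds a DNA element called the interferon-stimulated response element (ISRE). Interferon gamma acts mainly through another element, the gamma-activated site (GAS). The genes switched on in this way encode proteins that block viral replication, amplify the signal or restrain it, and in lung they are used as a readout of interferon exposure.

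Matches to the letters of these regulatory elements are shown first. RefSeq promoters on the build GRCr8, which cover 250 bases before and 50 bases after the start of transcription, were matched for 6 of the 9 genes. The ISRE core, GAAA and a further GAAA with any 2 bases between them, was searched on both strands, so that it reads as a pair of TTTC where it lies on the opposite strand. It was present in the promoters of Ifit3, Irf7, Oas1a and Rsad2, that is 4 of 6. Of all 33469 promoters, 3.92% held it. The windows around the element are printed 5′ to 3′ on the strand of the gene, with the element in capitals. In Oas1a the capitals cover a pair of overlapping copies.
Ifit3, chr1:241527257-241527316, plus strand: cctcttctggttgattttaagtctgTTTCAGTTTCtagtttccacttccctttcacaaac
Irf7, chr1:205800058-205800117, minus strand: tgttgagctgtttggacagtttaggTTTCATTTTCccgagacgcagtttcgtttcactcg
Oas1a, chr12:41330403-41330462, plus strand: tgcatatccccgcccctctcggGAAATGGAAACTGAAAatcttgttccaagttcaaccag
Rsad2, chr6:48788233-48788292, minus strand: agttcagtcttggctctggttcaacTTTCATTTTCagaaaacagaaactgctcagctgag

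All 4 windows lay upstream of the start of transcription. Counted from the start, the element ended at base −35 in Ifit3, −60 in Irf7, −26 in Oas1a and −138 in Rsad2. The GAS letters TTCNNNGAA, which read the same on both strands, were present in 2 of the 6 promoters, Irf1 and Oas1a, against 8.87% of all promoters. These windows are shown because Irf1, alone among the 6, held the GAS letters without the ISRE core. Mx1, the remaining matched gene, held neither.
Irf1, chr10:38417768-38417826, plus strand: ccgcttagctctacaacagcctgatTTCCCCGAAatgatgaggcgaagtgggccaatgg
Oas1a, chr12:41330242-41330300, plus strand: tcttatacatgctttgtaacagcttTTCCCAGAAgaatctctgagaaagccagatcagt

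In other interferon-stimulated genes listed for comparison, 21 of 30 matched promoters held the ISRE core and 6 of 30 the GAS letters. In genes that respond to interferon gamma, 12 of 18 held the ISRE core and 6 of 18 the GAS letters. Among interferon receptors and signal transducers these were 0 of 9 and 3 of 9. A match describes the letters in the window, and no binding was measured here. Promoter sequences of Isg15, Mx2 and Ifit2 were not analysed here.

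Of 19203 genes tested, 293 (1.53%) were called with limma, that is, with an unadjusted p of at most 0.05 and a mean FPKM that differed by at least 1 on the log2 scale, and the adjusted p was below 0.05 for 2 (0.0104%). The correlation of log2(FPKM + 1) between libraries ranged from 0.962 to 0.976 and averaged 0.969 within groups and 0.970 between groups, so that the groups did not stand apart as a whole. All 8 lung epithelial and endothelial markers measured were above 0 in every library. In Model_3 the summed level of 7 cardiac muscle markers was 30.9 FPKM, against 6.72 to 11.7 in the other 5 libraries. In Control_3 and Model_2 the macrophage gene Cd68 was at 1.30 and 1.21 FPKM, against 20.7 to 22.8 in the other 4 libraries.

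The first question was whether the interferon-stimulated genes differed between model and control lungs. None of the 9 was called by limma, none had an unadjusted p of at most 0.05 (4.90% of all genes did), and none was called with an ordinary linear model either. By their log2 fold changes, 7 genes were lower and 2 higher in the model, where 52.3% of all genes were lower and 47.7% higher, with a median of −0.04 beside −0.0064 for all genes tested. After FPKM were rescaled to a common sum per library (TPM), 3 were lower and 6 higher, where 38.7% of all genes were lower and 61.3% higher, and the counts were 2 lower and 7 higher without Model_3. For each of the 9 genes the values of the groups overlapped, whereas the groups did not overlap for 10.7% of all genes. Every 95% interval of a log2 fold change contained 0. The interval was narrowest for Isg15, from −0.24 to 0.40, and widest for Mx1, from −0.44 to 0.83, and the lowest bound was that of Ifit2, −0.98.

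The transcription factors are described before the effectors. Irf1, an activator induced mainly by interferon gamma that is located at chr10:39109522-39125337 on the plus strand, had the highest mean level of the group. Here and for the other genes, coordinates are those of the deposited table, whose genome build is not given in the sources used here. In control lungs Irf1 was at 21.9, 22.3 and 26.0 FPKM, and in model lungs at 20.6, 28.4 and 19.8 FPKM. Model_2 was the highest library and Model_3 the lowest, and the control values lay between them. The means were 23.4 ± 2.26 FPKM in control and 23.0 ± 4.75 FPKM in model lungs (SD, n = 3 each). The log2 fold change was −0.04 with a standard error of 0.15, and the adjusted p by limma was 0.992.

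Irf7, the factor that amplifies type I interferon production once it has itself been induced, is at chr1:214248837-214252982 on the minus strand. It was at 10.2, 16.3 and 17.1 FPKM in control and at 13.7, 16.6 and 11.7 FPKM in model lungs. Control_1 was the lowest library, and every model value lay within the range of the controls. Its log2 fold change was −0.03 with a standard error of 0.22, and the adjusted p by limma was 0.996.

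Isg15, a ubiquitin-like protein that is conjugated to other proteins, is at chr5:173624310-173626248 on the minus strand. It was at 3.83, 4.54 and 4.03 FPKM in control and at 4.62, 4.96 and 3.77 FPKM in model lungs. The highest and the lowest value were both in model libraries, Model_2 and Model_3. For Isg15 the log2 fold change was 0.08 with a standard error of 0.13, and the adjusted p by limma was 0.961.

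Mx1 and Mx2 encode dynamin-like GTPases that trap viral components. They lie on chromosome 11, Mx1 at chr11:37891028-37916708 on the minus strand and Mx2 at chr11:38034596-38059950 on the plus strand, with 117887 bases between them. Mx1 was at 4.73, 5.25 and 8.93 FPKM in control and at 7.03, 9.37 and 5.39 FPKM in model lungs. Control_3 and Model_2 were high, and the groups overlapped over most of their range. The Mx1 log2 fold change was the highest of the 9, at 0.19 with a standard error of 0.26, and the adjusted p by limma was 0.951. It ran from 0.0162 without Model_2 to 0.44 without Control_3.

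Mx2 was at 15.0, 19.2 and 17.1 FPKM in control and at 15.6, 21.8 and 12.4 FPKM in model lungs. As for Isg15, both extremes were model libraries, Model_2 and Model_3. For Mx2 the log2 fold change was −0.07 with a standard error of 0.20, and the adjusted p by limma was 0.987.

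Ifit2 and Ifit3 belong to a family of tetratricopeptide-repeat proteins that bind foreign RNA or the proteins of the antiviral signal. They are neighbours on the plus strand of chromosome 1, Ifit2 at chr1:252894663-252900726 and Ifit3 at chr1:252906234-252911382, with 5507 bases between them. Ifit2 was at 10.8, 13.1 and 14.5 FPKM in control and at 10.4, 13.4 and 6.29 FPKM in model lungs. Model_3 stood below the other 5 libraries, which overlapped between groups. Ifit2 had the lowest log2 fold change of the 9, at −0.37 with a standard error of 0.26 and a 95% interval from −0.98 to 0.25, and the limma p was 0.196 before and 0.934 after adjustment. Without Model_2, its log2 fold change was −0.59 with an unadjusted p of 0.0453 and an adjusted p of 0.819 by limma, and without Model_3 it was −0.10 with an unadjusted limma p of 0.582.

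Ifit3 was at 4.72, 7.33 and 6.69 FPKM in control and at 5.05, 7.50 and 3.61 FPKM in model lungs. Control_1, Model_1 and Model_3 were low and the other 3 libraries high, in both groups alike. For Ifit3 the log2 fold change was −0.21 with a standard error of 0.26, and the adjusted p by limma was 0.945.

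Oas1a, an oligoadenylate synthetase that is activated by double-stranded RNA and starts RNA cleavage by RNase L, is at chr12:41200718-41211909 on the plus strand. It was at 3.30, 4.67 and 4.83 FPKM in control and at 3.24, 4.77 and 4.03 FPKM in model lungs. Control_1 and Model_1 were low, and the other 4 libraries were higher. Its log2 fold change was −0.07 with a standard error of 0.18, and the adjusted p by limma was 0.981.

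Rsad2 (viperin), a radical SAM enzyme that makes a chain-terminating nucleotide, is at chr6:45655954-45669148 on the minus strand and had the lowest mean level of the 9. It was at 2.34, 3.24 and 3.02 FPKM in control and at 2.74, 3.31 and 2.32 FPKM in model lungs. Control_1 and Model_3 were nearly level at the bottom, and Model_2 was the highest. The log2 fold change was −0.03 with a standard error of 0.16, and the adjusted p by limma was 0.996.

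**Figure D1:**
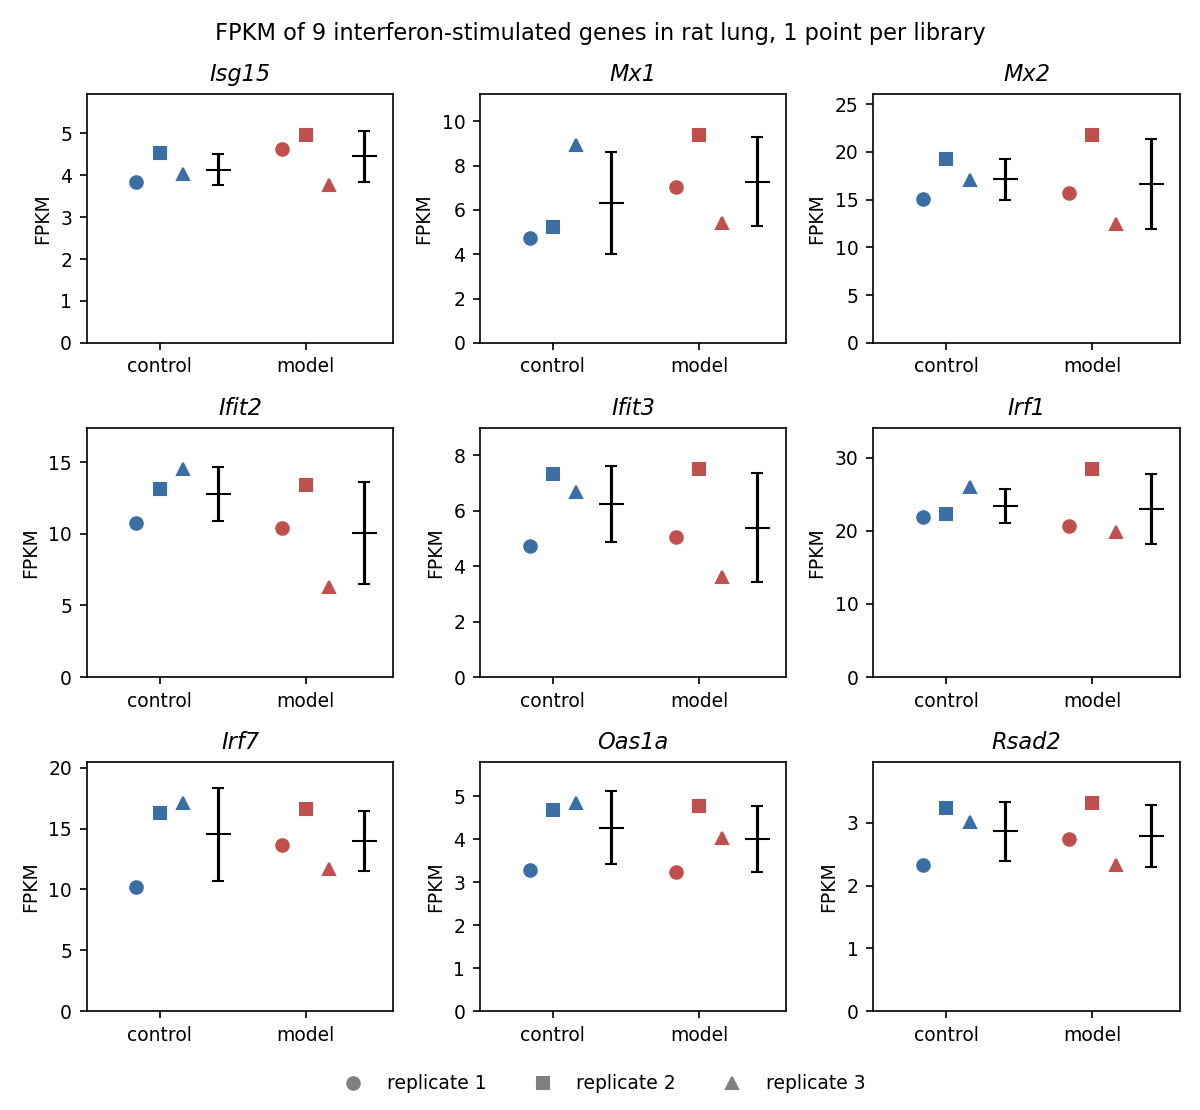
FPKM (vertical axis, from 0) of the 9 interferon-stimulated genes in the 3 control and 3 model libraries, with a marker shape for each replicate number and the group mean ± SD beside the points. The groups overlap for all 9 genes, and the square of the model group, Model_2, is the highest model value in each panel.

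**Figure D2:**
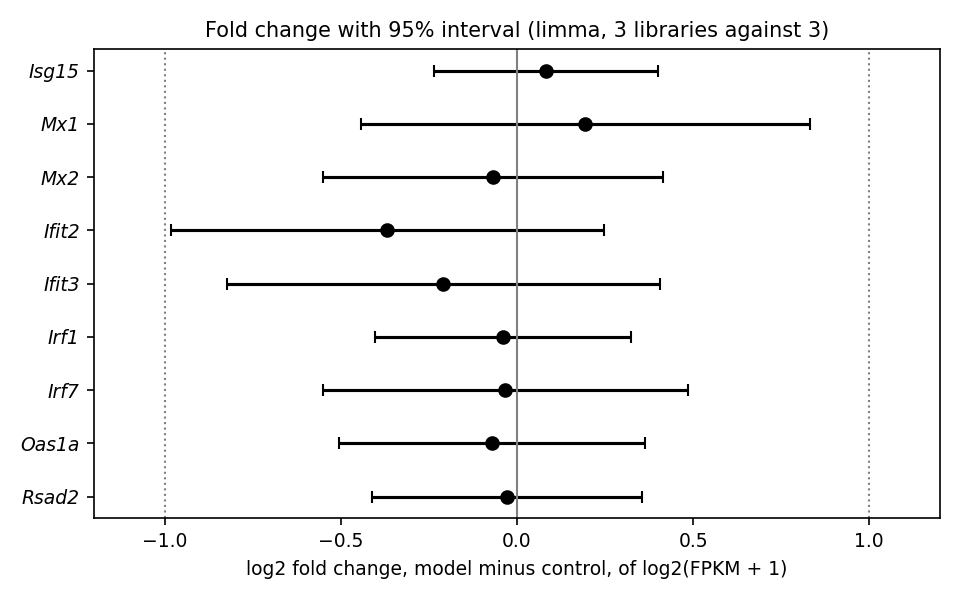
Log2 fold change of model against control for each gene on the log2(FPKM + 1) scale (horizontal axis), with the 95% interval by limma as the bar and dotted lines at −1 and 1. All 9 intervals contain 0, and the lowest bound, that of Ifit2, is −0.98.

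Ranked by mean FPKM over the 6 libraries, which is comparable between genes because FPKM is per length, the order was Irf1 (23.2), Mx2 (16.9), Irf7 (14.2), Ifit2 (11.4), Mx1 (6.78), Ifit3 (5.82), Isg15 (4.29), Oas1a (4.14) and Rsad2 (2.83). The ranges of each gene and the next overlapped for all 8 neighbouring pairs. Within a library the order was steadier: Irf1 exceeded Mx2, Mx2 exceeded Irf7, Ifit2 exceeded Mx1 and Oas1a exceeded Rsad2 in 6 of 6 libraries. Isg15 exceeded Oas1a in 3 of 6, so that these neighbours were not ordered. The order rests on sums that include transcripts assembled by the authors. The annotated Irf1 transcript alone averaged 6.16 FPKM in control and 8.29 FPKM in model lungs. Ifit2, which has no assembled transcript, averaged 12.8 and 10.0 FPKM. Model_3 was the exception, with annotated Irf1 at 13.0 and Ifit2 at 6.29 FPKM. The annotated Mx1 transcript alone was below Rsad2 in every library. The mean level was above the median of all genes tested, 3.97 FPKM, for 8 of the 9 genes. The reads behind a gene, estimated from its coverage, averaged from 297 for Isg15 to 4561 for Irf1 per library. Reads shared between the related genes Mx1 and Mx2, Ifit2, Ifit3 and Ifit1, or Oas1a and the other Oas1 genes could not be separated here. This makes the levels of these genes less certain.

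The second question was whether the genes moved together within each group, from library to library. In the control group all 9 genes were lowest in Control_1, where 32.5% of all genes were. The highest control differed between genes: it was Control_2 for Isg15, Mx2, Ifit3 and Rsad2, and Control_3 for the others. In the model group all 9 were highest in Model_2, where 28.0% of all genes were, and 8 of 9 were lowest in Model_3, where 32.5% of all genes were. The exception was Oas1a, which was lowest in Model_1. Control_1 lowest together with Model_2 highest held for 9 of 9 genes and for 10.5% of all genes, and adding Model_3 lowest left 8 of 9 and 5.88% respectively.

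The summed level of the 9 genes gives the size of this movement. It was 76.7, 96.0 and 102.1 FPKM in control and 83.0, 110.1 and 69.3 FPKM in model lungs. Both the highest and the lowest sum were in the model group. The highest library exceeded the lowest by 1.18-fold (Isg15) to 1.89-fold (Mx1) among controls and by 1.31-fold (Isg15) to 2.13-fold (Ifit2) among model lungs. For all 9 genes this fold within each group was larger than the fold between the group means. That outcome is largely built in, because extremes of single libraries are set against means of 3. The share over all genes is not given here.

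For each gene and library, the deviation of log2(FPKM + 1) from the mean of its group was then taken. Its median over the 9 genes was −0.22, 0.12 and 0.15 in Control_1, Control_2 and Control_3. In Model_1, Model_2 and Model_3 it was −0.018, 0.31 and −0.23. Over all genes tested, the medians of the 6 libraries lay between −0.014 and 0.012, so that the libraries were level as a whole. The number of genes above their group mean was 0, 7 and 8 of 9 in the control libraries and 2, 9 and 1 of 9 in the model libraries.

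**Figure D3:**
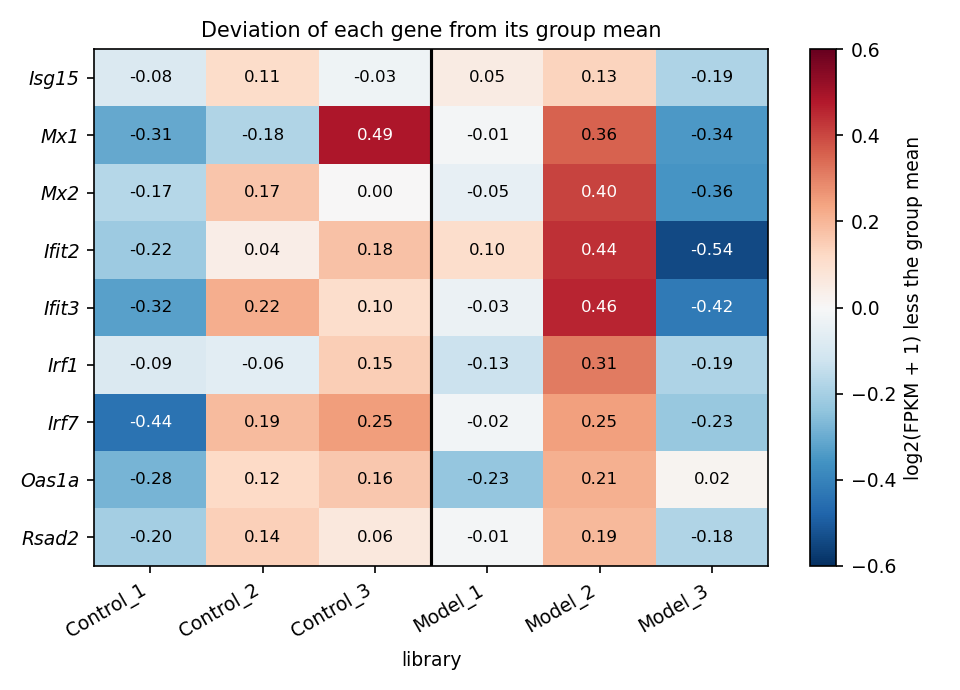
Deviation of log2(FPKM + 1) from the gene's own group mean (colour and printed value) for the 9 genes (rows) in the 6 libraries (columns), with a line between control and model. All 9 genes are below their mean in Control_1 and above it in Model_2, and 8 of 9 are below it in Model_3.

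The correlation of these deviations over the 6 libraries described how alike the genes were. It was positive in all 36 pairs of the 9 genes, with a median Pearson r of 0.793, and at least 0.5 in 33 pairs (91.7%). Over all pairs of tested genes the median was 0.008, and 20.5% reached 0.5. The highest r was 0.981, between Ifit3 and Rsad2, and the lowest was 0.365, between Isg15 and Oas1a. Oas1a was the least like the others, with a median r of 0.630, and Ifit3 the most, with 0.901. All pairs share the same 6 libraries, and each group mean was subtracted, so r is given as a description without a test.

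The spread within groups was also described. The pooled within-group SD of log2(FPKM + 1) had a median of 0.295 over the 9 genes, against 0.161 over the 9228 genes of the same range of mean FPKM. Among the 9 genes it ran from 0.137 for Isg15, the 1 gene below that comparison median, to 0.390 for Mx1.

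The likeness between genes depended on which transcripts were summed. With annotated transcripts alone, the median r over the 36 pairs was 0.248, and 12 pairs reached 0.5. The lowest r was then −0.857, so that not all pairs stayed positive. The same r over all pairs of genes with this choice is not given. The genes lowest in Control_1 then numbered 7 of 9, those highest in Model_2 6 of 9, and those lowest in Model_3 5 of 9. Annotated transcripts account for the whole level of Ifit2, Ifit3, Oas1a and Rsad2, which this choice leaves as they were. The 6 pairs among these 4 genes had a median r of 0.798, from 0.438 to 0.981. The other 5 genes also carry transcripts that the authors assembled from the reads, and their annotated transcripts were only a part of the level.

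Markers of immune cells moved in some of the same libraries. All 10 T cell and natural killer cell markers and all 6 B and plasma cell markers were lowest among controls in Control_1, the library where the 9 genes were lowest. The T and natural killer markers summed to 28.8, 46.3 and 50.0 FPKM in control and to 33.9, 36.6 and 43.2 FPKM in model lungs, with 1 of the 10 at 0 in Control_1 and none at 0 elsewhere. The B and plasma cell markers, with none at 0 in any library, summed to 46.8, 60.1 and 58.9 FPKM in control and to 36.4, 64.2 and 66.4 FPKM in model lungs. In the model group both sums were highest in Model_3, where 8 of the 9 interferon-stimulated genes were lowest, but the single markers were mixed. Among model lungs, 3 of the 10 T and natural killer markers were highest in Model_2, beside 28.0% of all genes. Of the 6 B and plasma cell markers 1 was. Lowest in Model_3 were 2 of the 10 and 0 of the 6, beside 32.5% of all genes.

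Macrophage markers other than Cd68 summed to 62.1, 63.1 and 66.1 FPKM in control and to 60.2, 66.0 and 72.3 FPKM in model lungs, again highest in Model_3. Neutrophil markers summed to 12.4, 17.8 and 15.0 FPKM in control and to 13.0, 11.7 and 14.0 FPKM in model lungs, and dendritic cell markers to 134.6, 115.3 and 147.1 FPKM and to 118.6, 119.0 and 125.0 FPKM. Neither list was highest in Model_2 among model lungs, and 1 of the 8 dendritic cell markers, Bst2, is itself an interferon-stimulated gene. The cardiac muscle markers named above were highest in Model_3, and without that library the median r between the 9 genes was 0.835. The part of cell composition in the movement of the interferon-stimulated genes was not tested.

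The rest of the pathway was read from 6 further lists with 90 tested genes besides the 9. No gene of these lists was called by limma, 2 had an unadjusted p of at most 0.05, both lower in the model, and 0 were called with the ordinary linear model. Among all genes, 2.73% had such a p with a lower level and 2.16% with a higher level. The groups did not overlap for 5 of the 90 genes (5.56%, beside the 10.7% of all genes), which were Eif2ak2, Irf2, Mavs and Samhd1 with lower values in the model and Ifngr1, a chain of the interferon gamma receptor, with higher values.

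Of the ligands, 6 of 11 names were tested, 5 lower and 1 higher by fold change. Interferon gamma (Ifng), the product of T and natural killer cells, was at 0.230, 0.382 and 0.209 FPKM in control and at 0.501, 0 and 0.105 FPKM in model lungs. It was listed at 0 in Model_2, the model library where the 9 genes were highest. No library exceeded 0.501 FPKM, so near the floor a listed 0 says little about the level of Ifng. Ifnk, an interferon of epithelial cells, was at 1.64, 1.74 and 1.14 FPKM in control and at 1.77, 1.69 and 1.09 FPKM in model lungs, with low values in replicate 3 of each group. All 6 ligands together summed to between 1.46 and 2.47 FPKM per library, and Ifnb1 was not analysed here.

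Of 11 receptors and signal transducers tested, 8 were lower and 3 higher, with a median log2 fold change of −0.06. Ifnar2, a chain of the type I receptor, was at 23.5, 23.0 and 22.1 FPKM in control and at 20.7, 18.4 and 22.6 FPKM in model lungs, with an unadjusted limma p of 0.150. Ifnar1, the other chain, had means of 36.0 ± 4.30 and 35.7 ± 5.40 FPKM (SD, n = 3). Jak2, a kinase of the interferon gamma receptor, had means of 11.4 ± 3.41 and 8.90 ± 1.42 FPKM with an unadjusted limma p of 0.200.

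Stat2, a part of the ISRE-binding complex, was at 15.0, 15.6 and 18.0 FPKM in control and at 15.2, 18.1 and 14.7 FPKM in model lungs. Like the 9 genes it was lowest in Control_1 and highest in Model_2 within its groups, with an r of 0.885 with their mean deviation. Irf9, the DNA-binding part of that complex, was at 1.05, 2.82 and 0.208 FPKM in control and at 2.79, 1.42 and 0.599 FPKM in model lungs, and its libraries scattered widely in both groups.

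Of 15 nucleic acid sensors and adaptors, 11 were lower and 4 higher. Mavs, the mitochondrial adaptor of the RNA sensors, was at 5.84, 6.61 and 6.05 FPKM in control and at 5.45, 4.26 and 5.28 FPKM in model lungs. All its model values were below all its control values, and the log2 fold change was −0.26 with an unadjusted limma p of 0.0728. Ifih1, a sensor of long double-stranded RNA that is itself induced by interferon, was at 10.8, 11.7 and 11.8 FPKM in control and at 9.27, 13.0 and 6.93 FPKM in model lungs, again with Model_2 high and Model_3 low (r = 0.890 with the mean of the 9).

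Of 34 other interferon-stimulated genes, 20 were lower and 14 higher, with a median log2 fold change of −0.03. The genes with an unadjusted p of at most 0.05 were Samhd1 and Bst2. Samhd1, which depletes the nucleotides that viruses need, was at 22.1, 23.7 and 35.0 FPKM in control and at 21.1, 17.1 and 15.7 FPKM in model lungs. All its model values were below all its control values, by a log2 fold change of −0.54 with a limma p of 0.0285 before and 0.934 after adjustment. Bst2 (tetherin), which holds virions on the cell surface, was at 52.1, 41.1 and 60.2 FPKM in control and at 32.7, 42.7 and 37.4 FPKM in model lungs. Its groups overlapped through Control_2 and Model_2, and its log2 fold change was −0.43 with a limma p of 0.0362 before and 0.934 after adjustment.

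Of 20 genes that respond to interferon gamma, 14 were lower and 6 higher. B2m, the light chain of MHC class I, had means of 222.3 ± 21.6 FPKM in control and 193.0 ± 6.63 FPKM in model lungs (SD, n = 3) with an unadjusted limma p of 0.0992. Cxcl10, a chemokine for T cells, was at 1.09, 1.47 and 2.89 FPKM in control and at 0.942, 1.37 and 0.980 FPKM in model lungs, and the high mean of the controls came from Control_3.

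Of 5 inhibitors of the pathway, 4 were lower and 1 higher. Usp18, which removes Isg15 from proteins and blocks the receptor, was at 9.26, 10.4 and 10.2 FPKM in control and at 9.35, 13.7 and 7.44 FPKM in model lungs. It was lowest in Control_1 among controls and highest in Model_2 among model lungs, with an r of 0.903 with the mean deviation of the 9. Irf2, which competes with Irf1 on DNA, had means of 22.3 ± 1.51 and 19.3 ± 2.56 FPKM with an unadjusted limma p of 0.115, and Socs1, an inhibitor of Janus kinases, had means of 2.32 ± 0.350 and 1.80 ± 0.634 FPKM with an unadjusted limma p of 0.226.

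The movement between libraries extended to other genes of the pathway. The r with the mean deviation of the 9 genes was at least 0.5 for 20 of the 34 other interferon-stimulated genes, 12 of the 20 interferon gamma-responsive genes and 4 of the 5 inhibitors, beside 20.7% of all genes. The medians of these lists were 0.666, 0.559 and 0.710, and that of all genes was −0.054. For the ligands it was 0.270, for receptors and transducers 0.130 and for sensors 0.307. Among the other interferon-stimulated genes, r ran from 0.947 for Cmpk2, a mitochondrial nucleotide kinase that neighbours Rsad2 in mammals, to −0.733 for Ifitm2, a membrane protein that blocks viral entry. It was above 0 for 27 of the 34. Ifit1, of the family of Ifit2 and Ifit3, was at 3.36, 3.14 and 2.84 FPKM in control and at 2.67, 2.93 and 6.95 FPKM in model lungs. Its highest values were thus in Control_1 and Model_3, where Ifit2 and Ifit3 were lowest within their groups. Ifnar2 was opposite to the 9 genes, with an r of −0.918. Among the cell markers the median was 0.451 for T and natural killer cells, with 5 of 10 at 0.5 or above, 0.290 for dendritic cells, 0.119 for B and plasma cells and 0.0485 for neutrophils. It was −0.195 for macrophages, −0.611 for lung epithelium and endothelium and −0.640 for cardiac muscle.

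**Figure D4:**
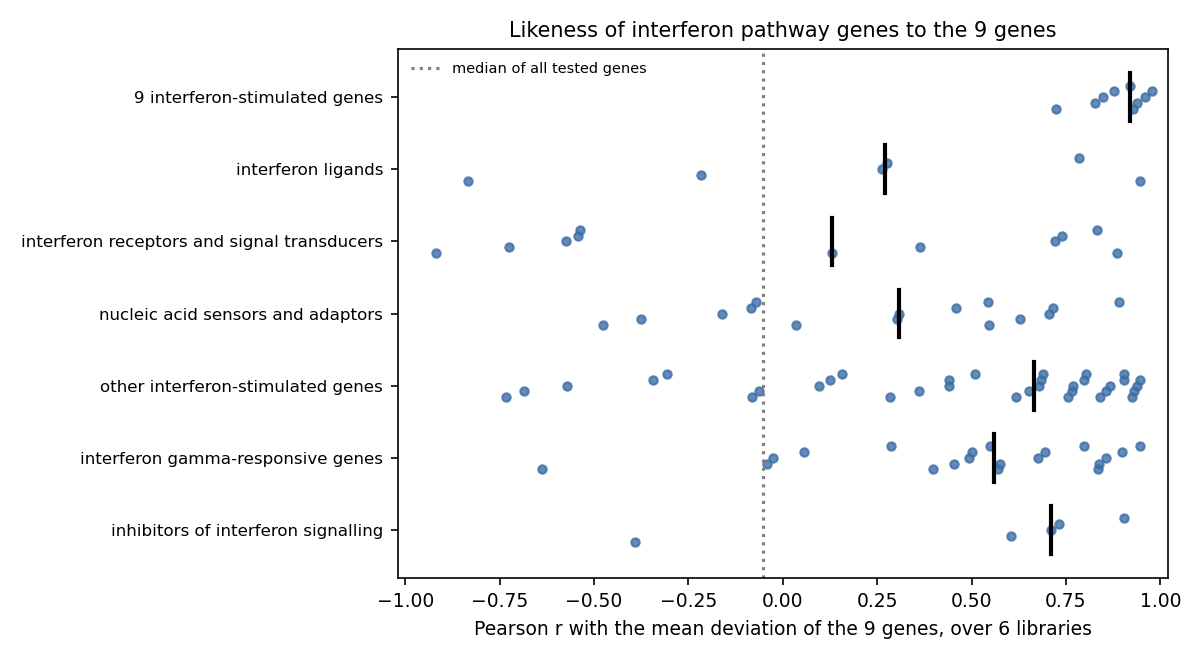
Pearson r (horizontal axis) of each gene's 6 deviations with the mean deviation of the 9 interferon-stimulated genes, 1 point per gene, by list, with the list's median as a black bar and the median of all tested genes, −0.054, as a dotted line. The 9 genes in the top row form part of the mean they are compared with, and the medians of the lower rows run from 0.130 for receptors and transducers to 0.710 for inhibitors.

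The 5 genes most like the mean deviation of the 9, among 13881 genes with a mean of at least 1 FPKM and over the 6 libraries, were Plcd4 (r = 0.998), Zfp385d (0.997), Rfx3 (0.993), Dtymk (0.991) and Casp4 (0.985). Plcd4 was at 1.63, 2.20 and 2.40 FPKM in control and at 1.79, 2.37 and 1.38 FPKM in model lungs. Casp4, an inflammatory caspase, was at 6.85, 7.45 and 7.85 FPKM in control and at 7.06, 7.92 and 6.71 FPKM in model lungs. These r are the 5 highest of a search over many genes with 6 values each, and are given as a description.

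At the level of transcripts, 22 were tested in a fit over 64867 transcripts, which was added after the transcript values had been seen. None was called by limma (2.98% of all transcripts were), and none had an unadjusted p of at most 0.05 (4.53% of all). The groups did not overlap for 1 of the 22, against 10.4% of all transcripts.

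That transcript was the annotated form of Irf7, ENSRNOT00000023504 with 10 exons and 1973 bases. It was at 9.31, 7.36 and 14.6 FPKM in control and at 5.64, 7.35 and 2.76 FPKM in model lungs. Control_2 and Model_2 were almost level, and the other libraries were farther apart. The log2 fold change was −0.90 with a standard error of 0.37, and the limma p was 0.0530 before and 0.945 after adjustment.

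The other Irf7 transcript, MSTRG.3304.1, was assembled by the authors and has 11 exons and 2144 bases. It was at 0.855, 8.95 and 2.46 FPKM in control and at 8.01, 9.24 and 8.90 FPKM in model lungs. The model libraries were level, while Control_1 and Control_3 were low and Control_2 was not. The log2 fold change was 1.28 with a standard error of 0.60, and the limma p was 0.0786 before and 0.945 after adjustment. The assembled form made up 8.41%, 54.9% and 14.4% of Irf7 in control and 58.7%, 55.7% and 76.3% in model lungs, while the sum of both forms had a log2 fold change of −0.03.

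The make-up of Irf7 thus differed within the controls too, where Control_2 was near Model_2. In other genes the make-up differed in single libraries. The assembled Mx1 transcript MSTRG.7535.3 made up 82.9%, 5.84% and 85.2% of Mx1 in control and 86.6%, 89.9% and 26.8% in model lungs, so that Control_2 and Model_3 were low. The assembled Mx2 transcript MSTRG.7540.3 made up 46.6% of Mx2 in Model_3 and from 0.724% to 2.96% in the other libraries. The annotated Irf1 transcript ENSRNOT00000010968 made up 65.6% of Irf1 in Model_3 and from 19.4% to 36.8% in the others. Transcripts of a gene share most of their exons, and how the authors' assembler divided reads among them could not be examined here.

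**Figure D5:**
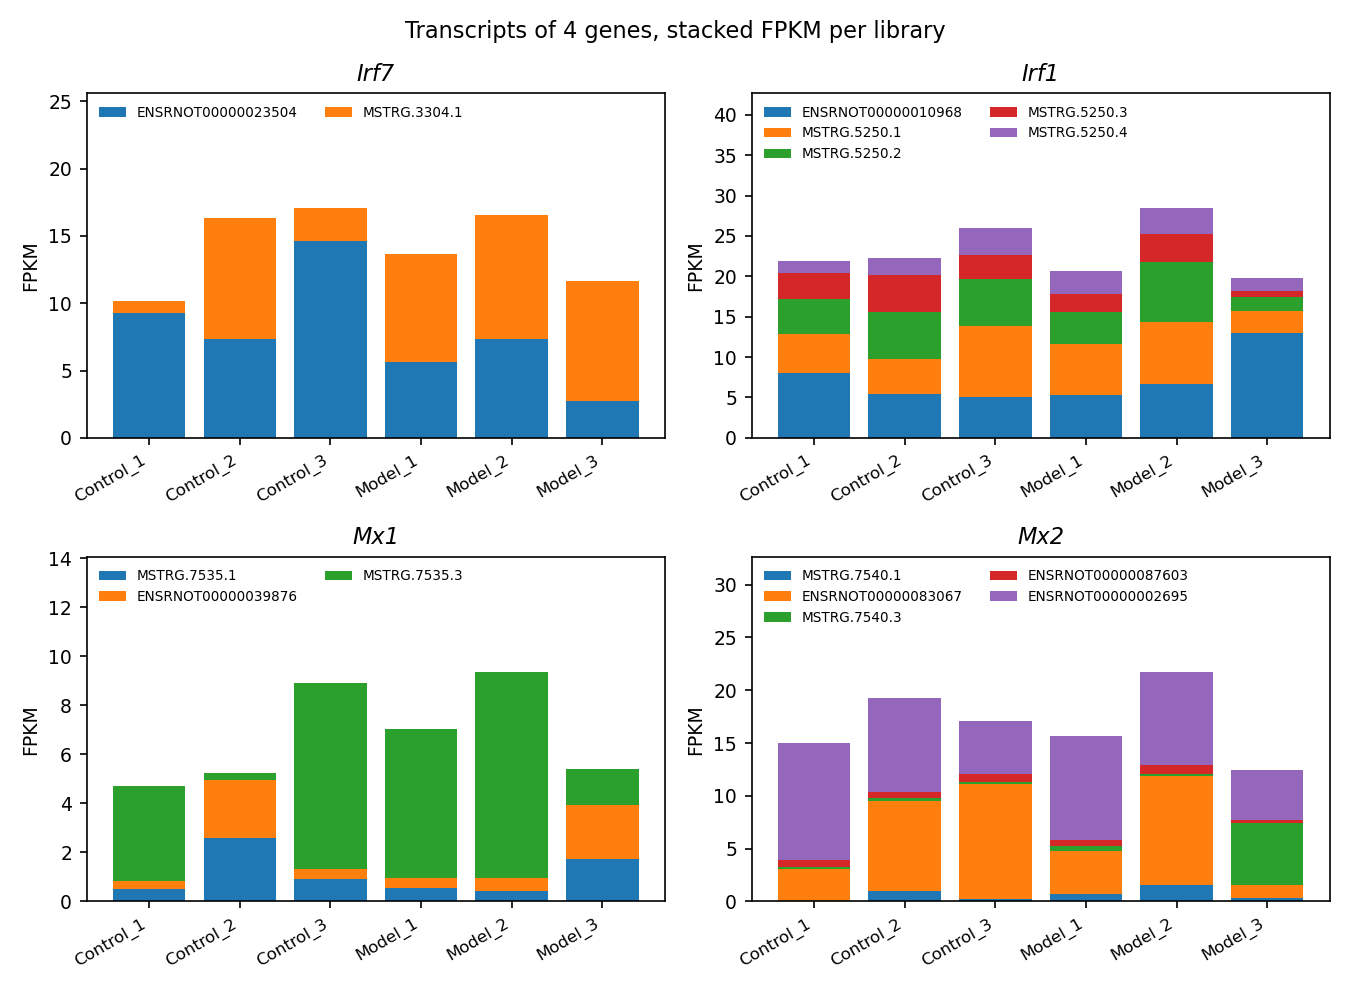
FPKM of the transcripts of Irf7, Irf1, Mx1 and Mx2, stacked per library (vertical axis, from 0; the height of a bar is the level of the gene). The assembled Irf7 form is level in the 3 model libraries, at 8.01 to 9.24 FPKM, and uneven among the controls. The mix in Mx1, Mx2 and Irf1 also differs between libraries of the same group.

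No circular RNA was assigned to any of the 9 genes among the 5216 listed, each library holding between 2037 and 2964 back-splice reads in all.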

How the data were processed

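Total RNA was depleted of ribosomal RNA, and stranded libraries were read as paired 150-base reads. The authors trimmed, aligned and assembled the reads and deposited FPKM and coverage (a signal of mean reads per base) for each transcript and library, made with StringTie. The submitters' processing notes name HISAT2, StringTie and TopHat, and versions and the genome build are not given in the sources used here. The deposited circular RNA table holds counts of back-splice reads.

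Here FPKM were summed over transcripts with the same gene name, for names with at least 1 annotated transcript. Genes with FPKM above 0 in at least 3 of 6 libraries were tested on log2(FPKM + 1), where fold changes of low genes are understated, with limma 3.58.1 (trend, two-sided, Benjamini-Hochberg over all genes) in R 4.3.3. Other values were computed with Python 3.11.15 and pandas 2.3.3. The fit was tested on simulated data. The reads behind a gene were approximated from its coverage, its length and the 150-base read length.

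The 9 genes and the gene lists were chosen with earlier results of these data known. Besides the 9 genes, the text names, per pathway list, genes called or the 2 with the smallest p at a mean of at least 1 FPKM, the genes whose role it explains, and the 5 genes most like the 9. Cell markers are given as sums. Cd68, Cmpk2, Ifitm2, Ifit1, Tbk1, Oas1g, Eif2ak2 and Ifngr1 were named after their values were seen, and the sum of macrophage markers without Cd68 was added then too. Alternatives covered pseudocounts, filters, scaling, the gene level, the test, the replicate block and leaving out each library.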

Additional observations from a re-analysis of the deposited data

How the results depend on the processing

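None of the 9 genes was called under any of 17 alternatives, with adjusted p from limma or the ordinary linear model of at least 0.819, and the median log2 fold change of the 9 ran from −0.18 to 0.06. The number of genes called overall was 80 with a mean FPKM of at least 1, 519 with annotated transcripts only and 302 to 396 when 1 library was left out, against 293; rescaling FPKM to a common sum (TPM) gave 194 higher and 138 lower in place of 132 and 161. The median r between the 9 genes was 0.248 with annotated transcripts only and 0.689 to 0.881 when 1 library was left out, against 0.793. Pathway genes called numbered 1 with annotated transcripts only (Tbk1, mean 0.671 FPKM in control and 0.105 in model) and 0 to 2 when 1 library was left out, the 2 being Ifng and Oas1g without Model_1, against 0. The cause of these shifts was not tested. Isg15, Mx1 and Ifit2 kept the sign of their log2 fold change under all 17 alternatives, though it was 0.0153 for Isg15 and 0.0162 for Mx1 without Model_2, and 0.18 for Isg15 without Model_3 and 0.44 for Mx1 without Control_3. The sign turned under TPM scaling for Mx2 (0.0106), Irf1 (0.0406), Irf7 (0.0474) and Rsad2 (0.0381), for Irf7 with length-weighted sums (0.0094) and for Irf1 with annotated transcripts only (0.31), with no p at or below 0.05. Leaving out 1 library also turned it: the log2 fold change ran from −0.27 to 0.11 for Mx2, −0.44 to 0.0031 for Ifit3, −0.20 to 0.0527 for Irf1, −0.25 to 0.0930 for Irf7, −0.21 to 0.0458 for Oas1a and −0.13 to 0.0630 for Rsad2. Over all genes, same-numbered libraries showed little common deviation (r = 0.072, 0.033 and −0.066), and 3 of 6 libraries correlated best with their own number. These values cannot decide whether the numbers pair the samples, because a pairing that touches only some genes could be missed. With the replicate block 311 genes were called, none of the 9 among them, and the median r was 0.905. That r is not comparable with 0.793, because subtracting group and replicate means leaves few free values per gene. The same r over all pairs of genes is not given. Reads per gene are estimates from coverage, so no counting interval is given, and 3 libraries a group limit what could be detected.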
